A study of Homo sapiens with 6 samples.

Results

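The genes described here are PITHD1, FUCA1, IFNLR1, IL22RA1, HTR1D, E2F2, KDM1A and LYPLA2, which all start within about 1 Mb of ID3 on the short arm of chromosome 1. They are 8 of the 57820 genes of the count table, listed by name, with ID3 itself and EPHB2 left out. RNA-seq had been carried out on the bladder cancer line J82, an established human line, in 3 control libraries and 3 libraries labelled FOXC1 KO. The KO cells had received LentiCRISPRv2, a lentiviral vector that carries Cas9 and a guide against FOXC1, a forkhead transcription factor, and had been selected with puromycin. Control cells carried vector, as the methods of the study state. The study reports less FOXC1 protein in J82 knockout cells by western blotting. Whether the 3 KO libraries came from 1 clone, from several or from separate cultures is not given in the sources used here, so p-values measure the spread between these libraries only. The study described an enhancer bound by FOXC1 upstream of ID3, farther from ID3 than the IFNLR1 start. It named PITHD1, FUCA1 and IFNLR1 among genes near that enhancer that were lower after knockout. The question that the comparison addresses is whether genes beside ID3 also differ between the groups. Distances below run from the ID3 start, not from that enhancer.

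The libraries held 18408134 to 25350908 counts. FOXC1 transcript did not fall in the libraries labelled KO: it stood at 18.4, 16.9 and 19.3 CPM (counts scaled to the effective library size) in control and at 24.1, 22.2 and 21.1 CPM in KO libraries (log2 fold change 0.30, edgeR adjusted p 0.0127, and 0.0784 without KO replicate 1 and 0.0827 without control replicate 2). The transcript level therefore does not check the labels, and every direction below is between the libraries labelled KO and control. Of 14 urothelial and epithelial markers 7 reached 1 CPM, led by the keratins KRT8 and KRT7, while KRT5, UPK1A, UPK1B, UPK3A and CDH1 had at most 3 counts in every library. The sum of the 14 ranged from 3182 to 4005 CPM in control and from 2491 to 2768 CPM in KO libraries. The summed level of 4 fibroblast genes ranged from 368 to 431 CPM in control and from 211 to 219 CPM in KO libraries. Its members went both ways: COL3A1 stood at 318 to 372 and 151 to 159 CPM and DCN was also lower in KO libraries, while COL1A1 stood at 1.97 to 3.61 and 12.02 to 12.4 CPM and PDGFRB at 28.7 to 37.9 and 35.2 to 42.4 CPM. The 5 leukocyte markers summed to 3.32 to 4.24 and 5.24 to 6.17 CPM, with CD3E and LYZ at no more than 3 counts. The 2 matched endothelial markers summed to 0.134 to 0.275 CPM in control and 0.992 to 1.31 CPM in KO libraries, where CDH5 stood at 0.714 to 1.11 CPM. Their part in the results below was not tested. In bulk RNA, fewer cells that express a gene and less RNA per cell cannot be told apart.

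An enhancer is a stretch of DNA that raises transcription of genes on the same chromosome, often over a long distance and past genes that do not respond. Genes that lie side by side can therefore share an enhancer without sharing a function. Apart from IFNLR1 and IL22RA1, the 8 genes have largely unrelated roles. IFNLR1 and IL22RA1 encode cytokine receptor chains and HTR1D a serotonin receptor. E2F2 encodes a cell cycle transcription factor and KDM1A an enzyme that removes methyl groups from histones. FUCA1 encodes a lysosomal enzyme that removes fucose from glycoproteins, LYPLA2 an enzyme that removes palmitate from proteins, and PITHD1 a small protein with a domain that binds the proteasome.

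All 8 genes had a log2 fold change (KO minus control) below zero, from -1.01 in IFNLR1 to -0.12 in LYPLA2. Across all 15647 tested genes 50.1% were below zero. A gene was called when its Benjamini-Hochberg adjusted p over all tested genes was under 0.05 in edgeR's quasi-likelihood test and its fold change was over 1.3. Under this rule 5 of the 8 were called lower (IFNLR1, IL22RA1, HTR1D, E2F2 and PITHD1) and 0 higher, where 8.39% of all tested genes were called lower and 7.57% higher. DESeq2 called 3 of the 8 lower (PITHD1, IFNLR1 and HTR1D), where it called 5.78% of its genes lower. Over 2-fold lower was 1 of the 8 (IFNLR1), where 2.05% of tested genes were. FUCA1 and KDM1A passed the adjusted p but not the fold, so that 7 of 8 passed the adjusted p alone, where 14.3% of tested genes did so in this direction. The control and KO values did not overlap for 6 of the 8 (all but E2F2 and LYPLA2), against 20.8% of tested genes that were lower without overlap. The genes had been listed with results of these libraries known, so these counts describe the list and are no test of the region.

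**Figure D1:**
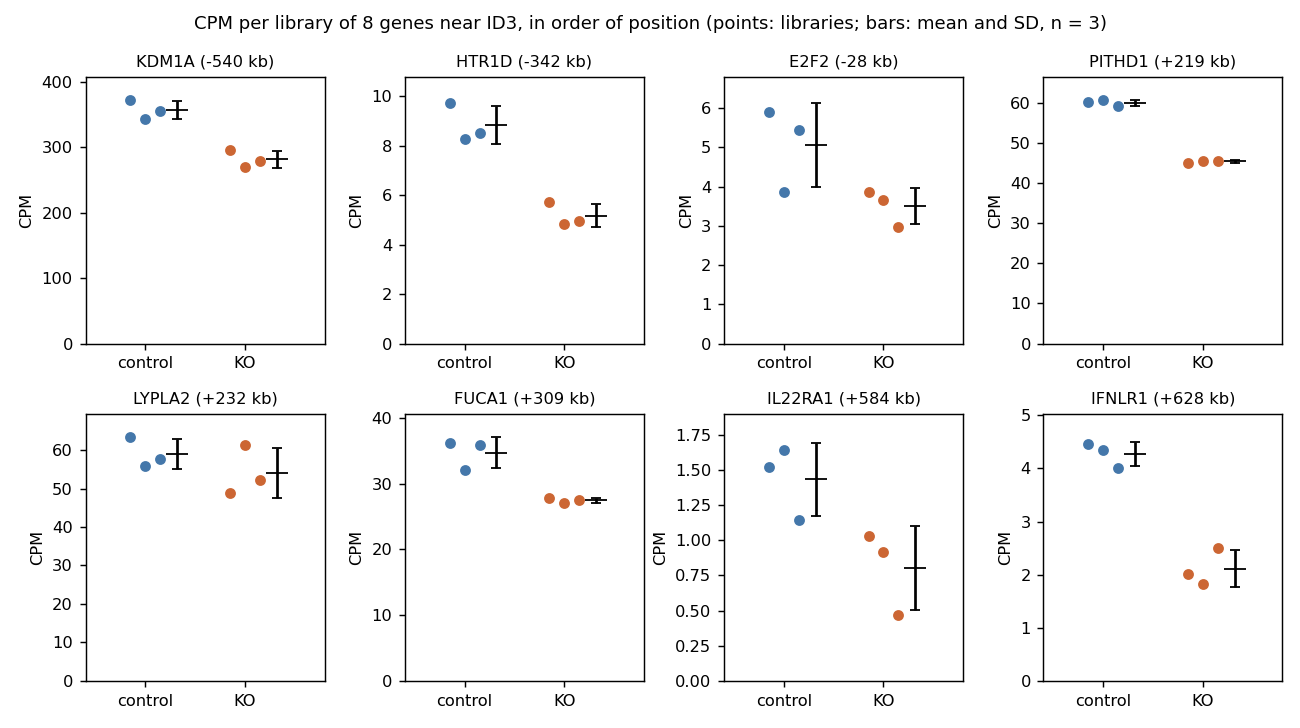
CPM per library (y axis, from 0) in control (blue) and KO (orange) libraries for each of the 8 genes, in order of position along the chromosome, with mean and SD (n = 3). Control and KO points are apart in 6 panels, meet at 3.85 and 3.86 CPM in E2F2, and are mixed in LYPLA2.

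IFNLR1 encodes the chain through which the receptor for type III interferons binds its ligand, and it works together with IL10RB. IFNLR1 (ENSG00000185436.7) lies on chromosome 1, GRCh37, from 24480658 to 24514449 on the minus strand, and starts 628 kb upstream of the ID3 start. Its level was 4.46, 4.35 and 4.01 CPM in control libraries and 2.01, 1.83 and 2.51 CPM in KO libraries. These values rest on 100 to 106 counts per control library and on 37 to 59 per KO library. Every KO library lay well below every control library. The mean fell from 4.27 ± 0.233 to 2.12 ± 0.353 CPM (SD, n = 3), a 2.01-fold change (log2 fold change -1.01, SE 0.16, edgeR adjusted p 1.82e-05). Only 2.04% of tested genes had a lower log2 fold change.

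IL22RA1 is the chain that IL10RB joins to form the receptor for interleukin 22, a cytokine that acts on epithelial cells. IL22RA1 (ENSG00000142677.3) lies from 24446261 to 24469630 on the same strand, 11.03 kb from IFNLR1, and starts 584 kb upstream of ID3. It was the most weakly expressed of the 8, at 1.52, 1.64 and 1.14 CPM in control and 1.03, 0.913 and 0.468 CPM in KO libraries. The groups did not overlap, but the lowest control and the highest KO library were close, and KO replicate 3 stood lowest. That library had 11 counts (95% exact Poisson interval 5.49 to 19.7, counting error only), against 29 to 40 counts in control libraries. The log2 fold change was -0.85 (SE 0.27, edgeR adjusted p 0.0187), and the adjusted p missed the threshold in DESeq2 (-0.84, adjusted p 0.120), in libraries thinned to the smallest one (-0.71, adjusted p 0.0632), without KO replicate 3 (-0.57, adjusted p 0.148) or without control replicate 2 (-0.74, adjusted p 0.0744). IL22RA1 was therefore called in 8 of the 12 alternatives in which it was tested.

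Because the forkhead family binds a shared core, the 250 bases before the RefSeq start of each gene were searched on both strands for TAAACA, and for the longer GTAAACA that contains it. TAAACA was present in 2 of the 8 promoters, those of IL22RA1 and PITHD1, and in 11.1% of 27305 promoters of the same length. GTAAACA was present in 0 of the 8 and in 2.98% of all promoters. Both promoters with the core are printed with that of LYPLA2, whose gene lies beside PITHD1 and was not called. They are RefSeq sequences placed by exact match on GRCh37, at chr1:24469631-24469880 (minus strand) for IL22RA1, chr1:24104658-24104907 (plus strand) for PITHD1 and chr1:24117385-24117634 (plus strand) for LYPLA2, and capitals mark TAAACA or its reverse complement TGTTTA.
IL22RA1: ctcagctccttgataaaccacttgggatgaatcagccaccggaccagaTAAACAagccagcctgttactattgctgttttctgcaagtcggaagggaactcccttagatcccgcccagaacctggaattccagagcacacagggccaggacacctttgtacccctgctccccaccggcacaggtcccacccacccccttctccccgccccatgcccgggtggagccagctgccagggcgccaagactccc
PITHD1: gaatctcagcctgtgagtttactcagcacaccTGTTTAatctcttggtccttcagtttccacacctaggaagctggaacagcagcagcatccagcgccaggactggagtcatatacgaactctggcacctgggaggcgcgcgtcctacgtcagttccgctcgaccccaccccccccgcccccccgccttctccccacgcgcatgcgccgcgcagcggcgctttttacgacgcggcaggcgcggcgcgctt
LYPLA2: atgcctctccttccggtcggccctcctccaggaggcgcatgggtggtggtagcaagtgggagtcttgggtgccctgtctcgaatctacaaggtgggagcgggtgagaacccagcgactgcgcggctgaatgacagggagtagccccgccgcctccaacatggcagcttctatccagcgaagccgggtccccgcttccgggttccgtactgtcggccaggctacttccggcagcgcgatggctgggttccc
Counted from the start, the printed capitals begin at position -202 in IL22RA1 and at position -218 in PITHD1. TAAACA lies on the strand of the gene in IL22RA1 and on the opposite strand in PITHD1. A match of these letters is not a binding site, and their absence from a window says nothing about the factor.

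To place both receptor chains among their partners, 19 genes of the class II cytokine receptors and their signalling were examined, of which 16 were tested. Besides IFNLR1 and IL22RA1, 2 of the other 14 were called lower and 0 higher (2 higher at an unadjusted p under 0.05, 0 higher in DESeq2), and the median log2 fold change of those 14 was 0.02. The called genes were STAT2 (-0.47, SE 0.069, edgeR adjusted p 4.45e-06), a signal carrier of interferon receptors, and SOCS3 (-0.39, SE 0.11, edgeR adjusted p 0.00537), a feedback inhibitor of cytokine signalling, which fell under the fold rule in 3 of 13 alternative fits. These 2 of 14 stand beside 8.39% of all tested genes called lower. IL10RB, the shared partner chain, was not called (0.07, SE 0.080). The ratio of IFNLR1 to IL10RB counts within a library does not depend on library scaling. It was 0.137, 0.127 and 0.125 in control libraries and 0.0597, 0.0516 and 0.0728 in KO libraries, lower in every KO library than in every control library. The exact two-sided permutation p was 0.1, the smallest that 3 against 3 libraries allow (0.16 after adjustment over 8 gene pairs, chosen after their values were seen). The ratio of IL22RA1 to IL10RB fell from 0.0434 ± 0.00686 to 0.0234 ± 0.0088 (SD, n = 3) with the same p and no overlap, and its log2 change of -0.96 was -0.61 without KO replicate 3. The ratio of IFNLR1 to IL22RA1 ran from 2.65 to 3.52 in control and from 1.95 to 5.36 in KO libraries, mixed between the groups, with a log2 change of -0.13 whose sign turned to 0.12 without KO replicate 1 and 0.10 without KO replicate 2 (exact permutation p 1 with all libraries).

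HTR1D encodes a serotonin receptor that lowers cyclic AMP. HTR1D (ENSG00000179546.3) lies from 23518388 to 23543995 on the minus strand, 342 kb from ID3 on its downstream side. It had 9.73, 8.28 and 8.50 CPM in control libraries and 5.71, 4.84 and 4.98 CPM in KO libraries, with no overlap and with similar spread in both groups. The mean fell from 8.84 ± 0.780 to 5.18 ± 0.468 CPM (SD, n = 3), a 1.71-fold change (log2 fold change -0.78, SE 0.12, edgeR adjusted p 1.28e-05). Of 14 serotonin receptor genes only 3 were tested, and the other 11 had too few counts. HTR2B (-0.34, SE 0.18) and HTR7 (0.12, SE 0.21) were not called, neither in DESeq2 nor at an unadjusted p under 0.05 (0 of 2), at mean levels under 3 CPM in both groups.

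E2F2 encodes an activating member of the E2F family, which turns on genes for DNA replication. E2F2 (ENSG00000007968.6), from 23832930 to 23857725 on the minus strand, starts only 28.3 kb from ID3 and is the nearest of the 8. It had 5.89, 3.85 and 5.43 CPM in control and 3.86, 3.65 and 2.98 CPM in KO libraries. Control replicate 2 stood at the level of KO replicate 1, so the groups met. The log2 fold change was -0.54 (SE 0.16, edgeR adjusted p 0.0111), and the adjusted p was 0.0594 in DESeq2 and 0.0696 without KO replicate 3. ID3, its neighbour, had a log2 fold change of -2.16 (SE 0.10). IFNLR1, which lies much farther from ID3, had -1.01 (SE 0.16).

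In the E2F and RB family, 2 of the other 19 tested genes were called lower and 1 higher, beside 8.39% and 7.57% of all tested genes, with a median log2 fold change of -0.12. CDK4 (-0.46, SE 0.072, edgeR adjusted p 9.76e-06) and CCNE1 (-0.48, SE 0.080, edgeR adjusted p 3.15e-05) fell, and CCND1 (0.39, SE 0.069, edgeR adjusted p 7.52e-05) rose. The CCND1 call rests on a fold close to the rule and was lost in 5 of 13 alternative fits, with log2 fold changes down to 0.36. These genes encode a kinase and cyclins that act on RB proteins, which hold E2F factors inactive. The other E2F genes were not called. Only E2F3 had a log2 fold change above zero (0.10). E2F1 stood at -0.13, and the rest ran from -0.10 in E2F4 to -0.30 in E2F8 (SE 0.12, edgeR adjusted p 0.0530). The ratio of E2F2 to E2F1 counts was 0.0433 ± 0.00679 in control and 0.0329 ± 0.00328 in KO libraries (SD, n = 3), an overlap of groups with an exact permutation p of 0.2.

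PITHD1, LYPLA2 and FUCA1 lie close together, with starts that span 89.9 kb. PITHD1 (ENSG00000057757.5), from 24104908 to 24114722 on the plus strand, starts 219 kb upstream of ID3. It had 60.1, 60.7 and 59.3 CPM in control and 45.1, 45.6 and 45.6 CPM in KO libraries, and had the smallest spread relative to its mean of the 8 in both groups. Its fold change of 1.32 was just inside the 1.3-fold rule (log2 fold change -0.40, SE 0.074, edgeR adjusted p 0.000109), and it was called in all 13 alternative fits. Among 12 other tested genes of the proteasome and the PITH domain, 0 were called lower (0 in DESeq2, 1 at an unadjusted p under 0.05). Of all tested genes 8.39% were called lower and 7.57% higher. PSMD2, a subunit of the proteasome cap, was called higher (0.40, SE 0.072, edgeR adjusted p 8.19e-05), though not past the fold rule in 3 of 13 alternative fits, and TXNL1, the other PITH domain gene, had a log2 fold change of -0.21 (SE 0.071, edgeR adjusted p 0.0273) and did not reach the fold rule.

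LYPLA2 (ENSG00000011009.6), from 24117635 to 24122029 on the plus strand, begins 2.91 kb after the end of PITHD1. It had 63.3, 55.8 and 57.8 CPM in control and 48.7, 61.4 and 52.1 CPM in KO libraries, mixed between the groups. The log2 fold change was -0.12 (SE 0.084, edgeR adjusted p 0.299), with a 95% interval from -0.29 to 0.04. The 95% interval of PITHD1, around -0.40, ran from -0.55 to -0.26 and overlapped that of LYPLA2. The value of LYPLA2 depended on single libraries: it was -0.06 without KO replicate 1, -0.08 without control replicate 1 and -0.22 without KO replicate 2 (edgeR adjusted p 0.0619). The ratio of PITHD1 to LYPLA2 counts was 0.950, 1.09 and 1.03 in control libraries and 0.925, 0.743 and 0.874 in KO libraries. The groups did not overlap, by a narrow margin (exact permutation p 0.1, 0.16 after adjustment over the 8 pairs), and the log2 change of -0.27 was -0.18 without KO replicate 2. An lncRNA on the opposite strand overlaps LYPLA2. The strand setting of the counting is not stated, so reads that these genes share cannot be told apart. Of 8 other tested depalmitoylase genes, 1 was called higher (ABHD17C, 0.50, SE 0.11, edgeR adjusted p 0.000815) and 0 lower (0 in DESeq2, 1 at an unadjusted p under 0.05). These counts stand beside 7.57% of all tested genes called higher and 8.39% called lower. LYPLA1, the paralog of LYPLA2, had a log2 fold change of 0.10 (SE 0.15), and the ratio of LYPLA2 to LYPLA1 counts was 0.502 ± 0.103 in control and 0.439 ± 0.141 in KO libraries (SD, n = 3), with overlap (exact permutation p 0.5) and a log2 change from -0.47 to -0.04 when 1 library was left out.

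FUCA1 (ENSG00000179163.11), from 24171567 to 24194780 on the minus strand, starts 309 kb upstream of ID3. It had 36.2, 32.1 and 35.9 CPM in control and 27.9, 27.1 and 27.5 CPM in KO libraries, with no overlap. The 3 KO libraries lay within 1 CPM of each other. The log2 fold change was -0.34 (SE 0.083, edgeR adjusted p 0.00247), and the 1.26-fold change was just outside the fold rule, which it passed only without control replicate 2 (-0.40). FUCA2, the secreted paralog, had a log2 fold change of 0.04 (SE 0.069). The ratio of FUCA1 to FUCA2 counts fell from 0.155 ± 0.00974 to 0.120 ± 0.00515 (SD, n = 3) without overlap (exact permutation p 0.1). Among 17 other tested lysosomal glycosidases and their partners, 1 was called lower and 2 higher, with a median of 0.04. HEXA, a subunit of hexosaminidase, fell (-0.68, SE 0.074, edgeR adjusted p 3.34e-08), and the mannosidase MAN2B1 (0.59, SE 0.084, edgeR adjusted p 3.09e-06) and the galactosidase GLA (0.38, SE 0.073, edgeR adjusted p 0.000187) rose. GLA did not pass the fold rule in 6 of 13 alternative fits, with log2 fold changes down to 0.32. These counts stand beside the 8.39% and 7.57% of all tested genes called lower and higher.

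KDM1A encodes the demethylase of the CoREST repressor complex. KDM1A (ENSG00000004487.11), from 23345936 to 23410182 on the plus strand, starts 540 kb from ID3 on the downstream side and was the most abundant of the 8. It had 372, 343 and 355 CPM in control and 295, 270 and 278 CPM in KO libraries, with no overlap and a clear gap. The log2 fold change was -0.34 (SE 0.068, edgeR adjusted p 0.000286), a 1.27-fold change that did not reach the fold rule, which it passed only without KO replicate 1 (-0.38). An lncRNA on the opposite strand and 2 miRNA genes overlap KDM1A and had at most 1 count per library. Of 16 other tested genes of the complex and its recruiters, 1 was called lower and 1 higher, close to the 8.39% and 7.57% of all tested genes. SNAI2 (0.61, SE 0.078, edgeR adjusted p 4.89e-07), a repressor that recruits the complex, rose. KDM1B, the paralog, had a log2 fold change of 0.09 (SE 0.073). The ratio of KDM1A to KDM1B counts was 4.41, 4.32 and 4.43 in control and 3.25, 3.32 and 3.17 in KO libraries, far apart (exact permutation p 0.1).

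**Figure D2:**
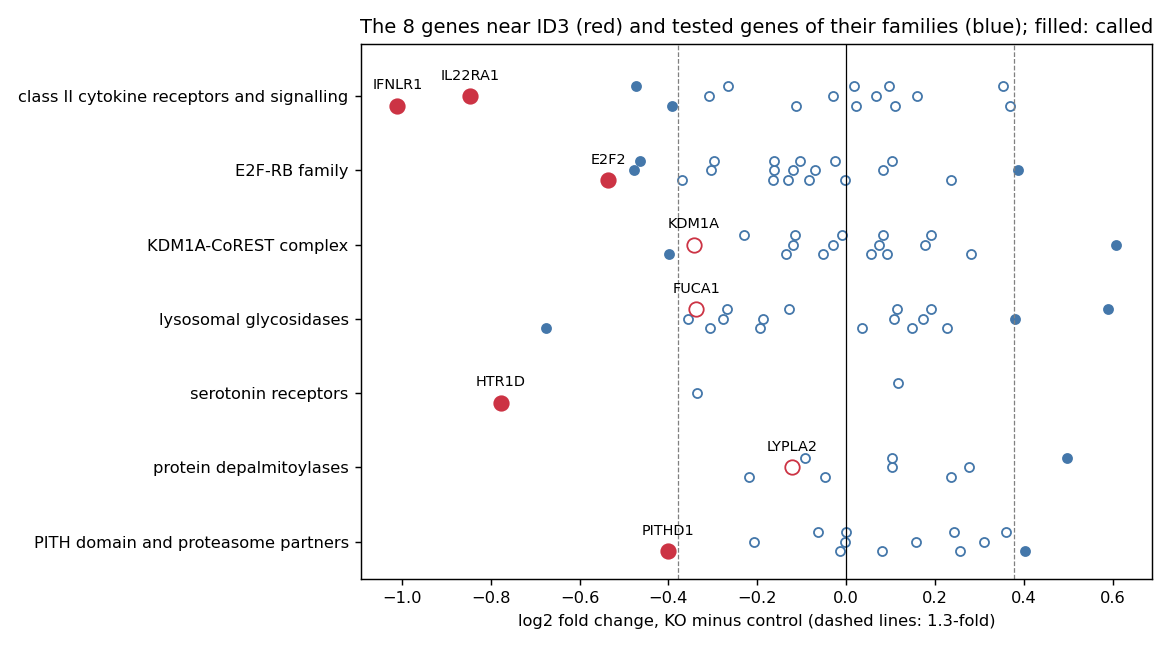
Log2 fold change (x axis, KO minus control) of the 8 genes (red) and of the tested genes of their families or complexes (blue), with filled points called at an adjusted p under 0.05 and over 1.3-fold (dashed lines). IFNLR1 and IL22RA1 stand at -1.01 and -0.85, while IL10RB and the rest of their list lie between -0.47 and 0.37.

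Distance from ID3 was then set against the change. Beside the 8 genes, 18 further tested genes start within 1 Mb of ID3, of which 2 were called lower and 1 higher (EPHB2). EPHB2, an ephrin receptor at the far downstream end (849 kb), rose (0.93, SE 0.098, edgeR adjusted p 1.40e-08). The other 15 lay between -0.50 and 0.03 and were not called. The listed genes thus held 5 of the 7 neighbours called lower, and the median log2 fold change was -0.47 over the 8 listed genes, -0.14 over the 18 others and -0.19 over all 26, against -0.00084 over all tested genes. A further 44 genes of the window were in the table but not tested, with means of at most 4.67 counts. Among these was GRHL3, which starts 640 kb upstream of ID3, just past IFNLR1, with 1 to 8 counts per library.

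The changes did not follow distance from ID3 in one order. On the upstream side of ID3, 5 of 15 tested genes were called lower (median -0.17), and on the downstream side 2 of 11 (median -0.20), beside 8.39% of all tested genes. IFNLR1 and IL22RA1, at 628 and 584 kb, had -1.01 and -0.85, and PITHD1 and FUCA1, at 219 and 309 kb, had -0.40 and -0.34. Genes in between such as RPL11 (-0.05, at 132 kb), ELOA (-0.01, at 184 kb) and PNRC2 (0.03, at 397 kb) did not pass the test. Over the 8 genes the Spearman correlation of log2 fold change with distance was -0.55, so that farther genes had lower values, and it was -0.32 without IFNLR1. Over the 26 tested neighbours it was 0.06. These correlations are descriptions over genes of the same 6 libraries. Distance from the enhancer that the study described was not tested.

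**Figure D3:**
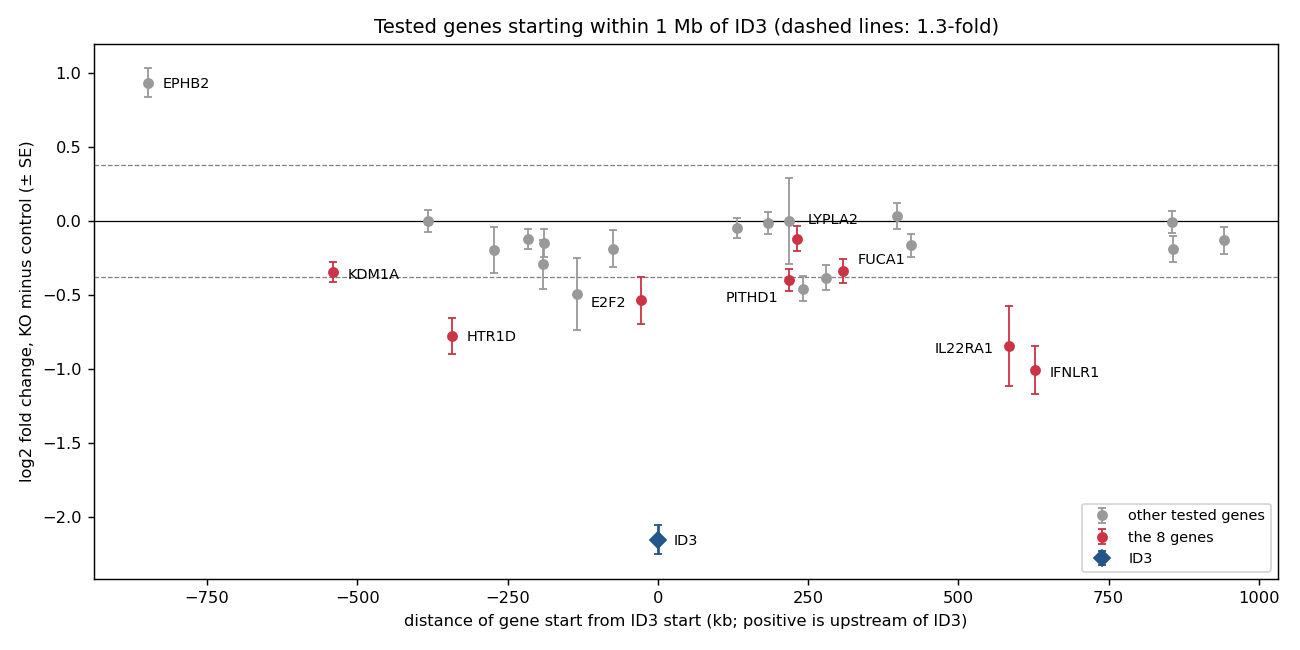
Log2 fold change with SE (y axis, KO minus control) against the distance of each gene start from the ID3 start (x axis, kb, positive upstream of ID3) for the 26 tested neighbours and ID3, with dashed lines at 1.3-fold. ID3 stands at -2.16, IFNLR1 and IL22RA1 lie lowest among the neighbours, and EPHB2 lies alone at 0.93.

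Expression level was then set against the change. Per kilobase of the canonical transcript, control levels were 116 ± 4.66 CPM per kb for KDM1A, 37.8 ± 0.449 for PITHD1, 36.1 ± 2.38 for LYPLA2 and 17.0 ± 1.13 for FUCA1 (SD, n = 3). They were 2.66 ± 0.235 for HTR1D, 0.973 ± 0.206 for E2F2, 0.936 ± 0.0510 for IFNLR1 and 0.509 ± 0.0922 CPM per kb for IL22RA1. PITHD1 and LYPLA2, and likewise E2F2 and IFNLR1, did not differ beyond their spread in control libraries. ID3 stood at 47.6 ± 4.25 CPM per kb in control libraries, between KDM1A and PITHD1, and at 10.6 ± 1.34 in KO libraries, below FUCA1 (13.5 ± 0.182). The 4 genes with a mean under 10 CPM (IFNLR1, IL22RA1, HTR1D and E2F2) had the lowest log2 fold changes of the 8. Over the 8 genes the Spearman correlation of log2 fold change with mean CPM was 0.83, and over the 26 neighbours it was 0.35, both descriptions. Genes of low level also spread more widely across the whole table. In the band under 10 CPM 13.2% of 5913 tested genes were called lower and the SD of log2 fold changes was 0.66, against 5.82% of 7336 genes and 0.32 from 10 to 100 CPM, and 4.46% of 2398 genes and 0.25 above 100 CPM. In these bands 4 of 4, 1 of 3 and 0 of 1 of the listed genes were called lower.

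**Figure D4:**
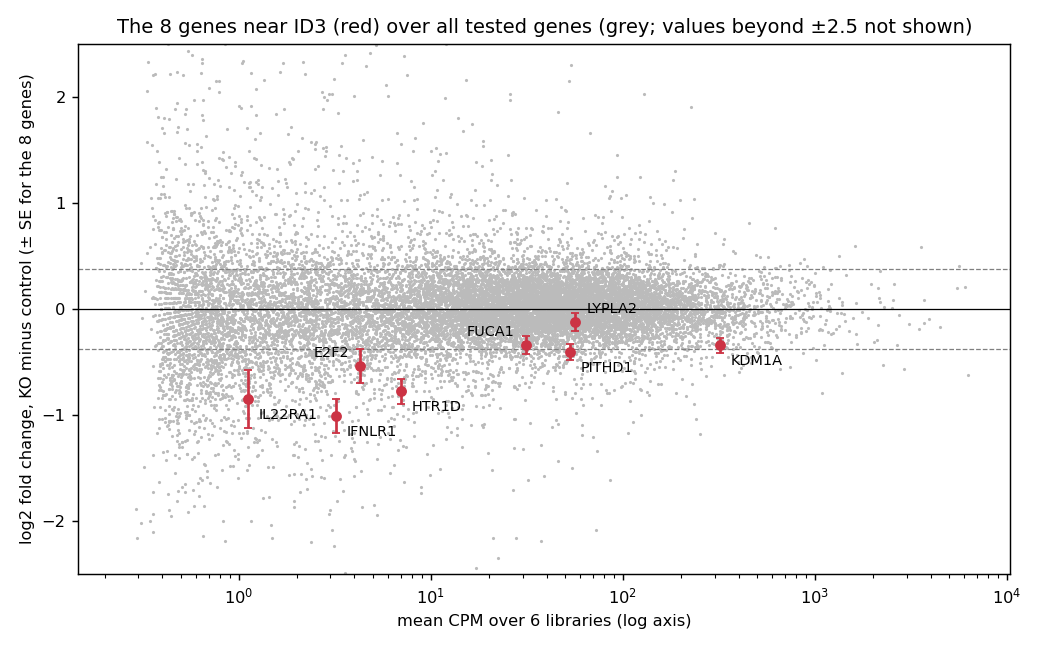
Log2 fold change (y axis, KO minus control) against mean CPM (x axis, log scale) for all tested genes within the range drawn (grey) and the 8 genes (red, with SE), with dashed lines at 1.3-fold. The 4 genes under 10 CPM lie between -1.01 and -0.54, where the grey cloud is also widest, and the 4 above 10 CPM lie between -0.40 and -0.12.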

How the data were processed

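RNA had been sequenced as paired reads from 6 J82 libraries, 3 control and 3 labelled FOXC1 KO, grouped by sample title. The authors deposited raw read counts per gene, made with STAR (alignment to hg19) and featureCounts of the Subread package (GENCODE gene models) (submitters' processing notes and the study's methods). Tool versions, the strand setting and the handling of reads with several matches are not given in the sources used here, so counts of overlapping and antisense genes are uncertain. All 57820 rows named a gene, and 55538 (96.05%) matched GENCODE v44lift37 on GRCh37, the same assembly as hg19. Distances run between annotated gene starts, and levels per kilobase use the Ensembl canonical transcript.

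In R 4.3.3, edgeR (4.0.16) kept 15647 genes by filterByExpr and scaled libraries by TMM. Groups were compared by its quasi-likelihood F test, in robust mode, with group as the only term. Standard errors were derived from the F statistic, and 95% intervals from the standard errors. The study's tool, DESeq2 (1.42.0), was an alternative, beside RLE size factors, library size alone, other filters, thinning, the replicate number as a block, other fold thresholds and windows, and leaving out each library. Libraries of a group were distinct (chi-square per gene 2.94 to 10.1). Exact permutation tests (scipy 1.17.1) were two-sided. The procedure was tested on simulated counts.

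The 8 genes and the family lists were chosen with earlier results of these data known. Besides the 8 genes, the genes named are ID3, EPHB2 and FOXC1, up to 5 called neighbours, and up to 4 called genes with the smallest p per family list. Some genes that this rule names are not reported here. Partner chains, paralogs, uncalled neighbours and the 8 gene pairs were chosen after their values were seen.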

Additional observations from a re-analysis of the deposited data

How the results depend on the processing

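Of 103 values of the 8 genes under the 13 alternative fits, 97 stayed on the same side of zero and of the 0.05 threshold, 6 lost significance (IL22RA1 in 4 fits, E2F2 in 2) and 0 changed sign. PITHD1, IFNLR1 and HTR1D were called in all 13 fits. The count of listed genes called lower was 5, and was 3 in DESeq2 and 1 at over 2-fold (IFNLR1). It ranged from 3 (without KO replicate 3, where IL22RA1 and E2F2 were lost) to 6 (without KO replicate 1, where KDM1A was added) when 1 library was left out. With the replicate number as a block the count was 5 of the 8, and 7 and 1 neighbours were called lower and higher, as without it. Same-numbered libraries did not deviate together (correlations of -0.027, -0.072 and 0.050), which shows no large effect shared by number. Whether they were cultured or prepared together is not stated and cannot be told from these values. Of the neighbours 1 was called lower and 0 higher at over 2-fold, and 0 were higher within 0.5 Mb, a window that leaves out EPHB2. The neighbourhood median was -0.14 within 2 Mb and ranged from -0.22 to -0.18 when 1 library was left out. With no fold threshold 14.3% of all tested genes were lower, and the share that was higher is not given here. The calls, with the 8 genes counted in, rose in the E2F and RB family (5 lower and 2 higher of 20 tested). They rose in the KDM1A list (3 and 2 of 17) and among lysosomal glycosidases (7 and 2 of 18). Depalmitoylases also had more calls (1 and 2 of 9), and so did the PITH and proteasome list (2 and 5 of 13). With the 1.3-fold rule that last list held 2 calls, and 1 to 3 when 1 library was left out. The ratio of IFNLR1 to IL22RA1 changed sign without KO replicate 1 (0.12) and without KO replicate 2 (0.10), and was -0.61 without KO replicate 3. Apart from thresholds, windows and fewer libraries, the cause was not tested. Depth limits IL22RA1 most, at 11 to 40 counts per library.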
